A study of Mus musculus with 9 samples.

Results

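The genes of de novo fatty acid synthesis were followed in mouse liver across 3 groups of mice, T3 plus FoxO1 siRNA, T3 and euthyroid: the ATP citrate lyase Acly, the acetyl-CoA synthetase Acss2, the malic enzyme Me1, the acetyl-CoA carboxylases Acaca and Acacb, the fatty acid synthase Fasn, the elongase Elovl6, the desaturase Scd1 and the transcription factors Srebf1 and Mlxipl. These 10 genes, of 19057 named on the array, were chosen by their role in the pathway and matched by symbol. They are read by 15 probes. Of these, 11 passed the filter on dim probes (detected, at a p-value under 0.05 against negative controls, on 3 or more arrays), and each of the 11 was detected on all 9 arrays. For 9 of the 10 genes a brightest passing probe therefore stood for the gene among the 10408 genes tested. Acaca had no value, since its only probe was detected on 0 arrays.

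Liver RNA of 8-week-old male C57BL/6 mice was hybridized to Illumina bead arrays, 3 arrays to a group. One group, labelled hyperthyroid plus FoxO1 knockdown, had been given triiodothyronine (T3), the active thyroid hormone, over 3 days together with FoxO1 siRNA, a short RNA that triggers breakdown of the matching messenger, by hydrodynamic tail vein injection, in which a large volume pushed quickly into the blood carries nucleic acid into hepatocytes. A second group, labelled hyperthyroid, had received the same hormone course alone. The third was the euthyroid control. No control siRNA or control injection is named for the T3 and euthyroid groups, so the effects of FoxO1 loss and of the injection cannot be told apart. Whether the 3 arrays of a group stand for separate mice is not stated, so each p-value reflects variation among these samples, which may be technical. All levels below are background-corrected, quantile-normalized log2 signals of a probe, and all changes are log2 differences between group means with their standard error (SE) and an adjusted p from limma, two-sided and adjusted over all genes tested. A change was called at an adjusted p under 0.05. Signals of different probes are not on a common scale, so no gene is set against another by level.

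The median probe signal ranged from 109 to 127 over the arrays, and 36.4% to 40.5% of the 45281 probes were detected on each. The array reads FoxO1 itself with 2 probes, and neither fell below detection on any array. Foxo1 on its bright probe averaged 8.46 ± 0.06 in T3 plus FoxO1 siRNA livers, 9.53 ± 0.29 in T3 livers and 8.76 ± 0.08 in euthyroid livers (SD, n = 3 each). It fell by 1.07 ± 0.14 with the siRNA against T3 (adjusted p = 0.00166, limma), rose by 0.77 ± 0.14 with T3 against euthyroid (adjusted p = 0.00805), and its change of -0.30 between T3 plus FoxO1 siRNA and euthyroid livers missed the threshold (adjusted p = 0.150). The dimmer Foxo1 probe read 6.44, 6.07 and 5.96 in T3 plus FoxO1 siRNA livers, 6.79, 7.12 and 6.78 in T3 livers and 6.74, 6.88 and 6.92 in euthyroid livers. It was lower with the siRNA than with T3 (-0.74 ± 0.15, adjusted p = 0.0131 over all probes) and than euthyroid (-0.69 ± 0.15, adjusted p = 0.0117), but did not differ past the threshold between T3 and euthyroid (0.05 ± 0.15, adjusted p = 0.851). Both probes thus read lower with the siRNA than with T3, and they differed in the other comparisons. Hepatocyte markers such as Alb, Apoa1 and Ttr were detected on all 9 arrays, while Tat, of the 11 listed, was detected on 2.

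De novo fatty acid synthesis turns surplus carbohydrate into fat. Citrate exported from mitochondria is split by ATP citrate lyase into cytosolic acetyl-CoA, carboxylation to malonyl-CoA commits the carbon, and fatty acid synthase builds palmitate with NADPH that malic enzyme helps to supply. In liver the pathway is switched on after feeding by insulin through SREBP-driven transcription and by glucose through ChREBP, the product of Mlxipl. Thyroid hormone is a classical inducer of several of its enzymes, malic enzyme among them. FoxO1, which insulin signalling keeps out of the nucleus, is best known for driving gluconeogenic genes.

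With FoxO1 siRNA on top of T3, the 7 measured enzymes of the pathway were called lower and its transcription factors were not called. Acaca was not measurable. Of 9 genes, 7 fell and 0 rose against T3 alone (Acly, Acss2, Me1, Acacb, Fasn, Elovl6 and Scd1), with changes between -0.42 in Acly and -1.60 in Acss2. In each of the 7, all 3 siRNA arrays lay below all 3 T3 arrays. Among all genes tested 7.77% fell in this comparison, and 17.5% had siRNA arrays that all lay below the T3 arrays, and in either direction 77.8% of the members were called, against 19.6% of all genes. The median change of the 9 was -0.57, beside 0.01 over all genes. The count of 7 depended on single arrays and settings: it was 3 without T3 replicate 3 or siRNA replicate 3, and 4 without euthyroid replicate 1 or 3, without siRNA replicate 2, with median scaling, with no filter or with the 2 groups fitted alone. In a bulk sample fewer cells of a type and less RNA per cell cannot be told apart.

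With T3 alone Me1 and Acss2 were higher than in euthyroid livers, and no other of the 9 passed the threshold. Me1 rose 3.87-fold and Acss2 1.81-fold. With 2 of 9 called, the share (22.2%) was close to the 18.4% of all genes called in either direction (7.81% were higher), and nothing is read from the count, which was 1 without T3 replicate 2 or 3 or euthyroid replicate 2 or 3 and 4 without siRNA replicate 1. Arrays of the groups did not overlap for 3 genes higher with T3 (Me1, Acss2 and Acacb, where 16.5% of all genes were apart in that direction) and 1 lower (Srebf1, against 24.1%). The median change was 0.35, beside -0.05 over all genes.

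Set against euthyroid livers, Fasn, Acss2, Acly and Scd1 were lower and Me1 was higher in T3 plus FoxO1 siRNA livers. These 5 of 9 genes (55.6%) stood beside 26.8% of all genes called, 13.3% lower and 13.5% higher. The count of 5 was 1 without euthyroid replicate 1, without siRNA replicate 2 or with median scaling, 2 without euthyroid replicate 3 or with no filter, and 3 without euthyroid replicate 2, T3 replicate 3 or siRNA replicate 1 or 3 or with the 2 groups fitted alone. Arrays were apart for 5 genes lower, the 4 named and Srebf1, against 24.0% of all genes, and for Me1 higher, against 22.1%. The median change was -0.39, beside -0.02 over all genes. Each pair of these 3 comparisons shares a group of arrays, so their values are given side by side and are not independent.

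**Figure D1:**
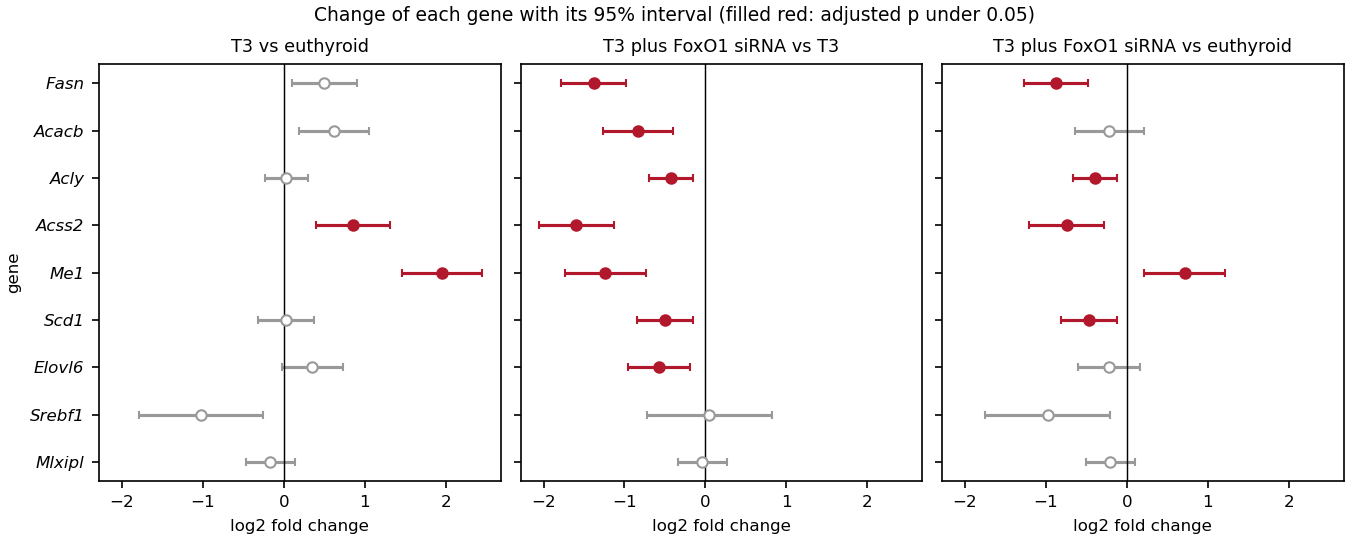
Log2 change of each of the 9 measured genes (rows) with its 95% confidence interval (bar) in the 3 comparisons (panels), filled red where the adjusted p was under 0.05. Against T3 the siRNA group is lower for the 7 enzymes, from Acss2 (-1.60) to Acly (-0.42), while Srebf1 (0.05) and Mlxipl (-0.04) sit near 0; against euthyroid, T3 stands highest for Me1 (1.95) and lowest for Srebf1 (-1.03).

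Promoter sequence was looked up for all 10 genes, whether or not they were called. RefSeq's table of windows from 250 bases before to 50 bases after a start site (GRCm38.p6) held 13 windows for 9 of the 10 genes, with none for Scd1. Each window was searched on both strands for TCACNCCAC (a sterol regulatory element), CACGTG (the E-box), CCAAT (the box bound by NF-Y), GGGCGG (the GC box bound by Sp factors), AGGTCA (the core bound by nuclear receptors) and TGTTTAC (a FoxO motif). The Fasn, Acss2, Me1 and Elovl6 windows are shown because these genes were lower with the siRNA than with T3 and, among them, only the Elovl6 window held the FoxO motif. Acly and Acacb were lower too, and their windows are not shown. The lines give the 250 bases before the start, 5′ to 3′ on the gene's strand, with every match in capitals.
Fasn, chr11:120824548-120824797, minus strand: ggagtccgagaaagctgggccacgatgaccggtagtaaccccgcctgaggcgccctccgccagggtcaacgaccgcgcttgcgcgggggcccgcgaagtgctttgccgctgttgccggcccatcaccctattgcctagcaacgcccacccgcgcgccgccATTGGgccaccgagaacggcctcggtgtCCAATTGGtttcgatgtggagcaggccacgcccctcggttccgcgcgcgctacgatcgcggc
Acss2, chr2:155517793-155518042, plus strand: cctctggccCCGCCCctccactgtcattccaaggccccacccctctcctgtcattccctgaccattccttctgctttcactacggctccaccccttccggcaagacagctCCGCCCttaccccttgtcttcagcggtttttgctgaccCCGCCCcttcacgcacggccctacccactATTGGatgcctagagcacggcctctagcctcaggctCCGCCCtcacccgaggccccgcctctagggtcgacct
Me1, chr9:86695915-86696164, minus strand: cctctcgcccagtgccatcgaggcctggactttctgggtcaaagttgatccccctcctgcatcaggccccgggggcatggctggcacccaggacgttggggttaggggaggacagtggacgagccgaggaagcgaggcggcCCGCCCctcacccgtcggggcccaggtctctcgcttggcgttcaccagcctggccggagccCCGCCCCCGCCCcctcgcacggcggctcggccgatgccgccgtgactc
Elovl6, chr3:129532136-129532385, plus strand: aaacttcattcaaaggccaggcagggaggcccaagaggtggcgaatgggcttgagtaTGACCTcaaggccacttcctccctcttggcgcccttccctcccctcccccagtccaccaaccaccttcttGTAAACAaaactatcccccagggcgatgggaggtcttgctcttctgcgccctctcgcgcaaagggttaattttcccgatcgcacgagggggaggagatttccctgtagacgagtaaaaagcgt

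In these lines Fasn had 3 CCAAT boxes, at 90, 62 and 59 bases before the start counted from the match's first base, and the last of these overlapped the one before it. Acss2 held 1 CCAAT box and 4 GC boxes. The Me1 line held 3 GC boxes, the one at 48 directly followed by the one at 42; its full window held a further GC box after the start, and another Me1 start in the table had 1 CCAAT box. Elovl6 had an AGGTCA core at 193 and the FoxO motif at 123 bases before its start. Of the 13 full windows, 8 (61.5%) held a CCAAT box and 6 (46.2%) a GC box, motifs found in 37.4% and 35.7% of all 32851 windows. These counts include the windows of Srebf1 and Mlxipl, which were not called, and of Acaca, which had no value, so they do not describe the lowered genes alone. The FoxO motif occurred in Elovl6 alone (3.65% of all windows), the sterol element in 1 of 2 Mlxipl windows (1.24%), the E-box in the other Mlxipl window (7.15%) and the nuclear receptor core in Elovl6, Acly and Acacb (16.3%). A match describes these letters, not a bound site.

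The enzymes that supply cytosolic acetyl-CoA changed by different amounts. Acss2, which makes acetyl-CoA from acetate, read 12.03, 11.87 and 11.55 in T3 plus FoxO1 siRNA livers, 13.005, 13.56 and 13.68 in T3 livers and 12.84, 12.43 and 12.41 in euthyroid livers. The 3 groups did not overlap, with T3 highest and the siRNA lowest. Acss2 fell by 1.60 ± 0.21 with the siRNA against T3 (adjusted p = 0.00139), a 3.02-fold lower level and the deepest fall of the 9. T3 against euthyroid gave 0.85 ± 0.21 (adjusted p = 0.0215), and T3 plus FoxO1 siRNA against euthyroid gave -0.74 ± 0.21 (adjusted p = 0.0270). Its rise with T3 missed the threshold without T3 replicate 2 or 3, or euthyroid replicate 2 or 3 (adjusted p of 0.0633 to 0.0698), and its fall below euthyroid missed it without euthyroid replicate 1 or 2, or siRNA replicate 2 or 3 (0.0523 to 0.0960). A further Acss2 probe passed no filter, being detected on 1 array.

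Acly, which splits citrate, read 12.91, 12.83 and 12.91 in T3 plus FoxO1 siRNA livers, 13.22, 13.17 and 13.52 in T3 livers and 13.36, 13.13 and 13.34 in euthyroid livers. The siRNA arrays were the lowest 3 of the 9, and the T3 and euthyroid arrays overlapped throughout. Its fall of 0.42 ± 0.12 against T3 was the smallest of those called (adjusted p = 0.0375), and T3 against euthyroid gave 0.03, with a 95% interval of -0.24 to 0.30 (adjusted p = 0.876). Against euthyroid livers the siRNA group was lower by a change of -0.39 ± 0.12 (adjusted p = 0.0396), a call lost under 7 of 20 other settings (adjusted p up to 0.121, without euthyroid replicate 1).

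Me1, the cytosolic malic enzyme that yields NADPH, had the widest response to hormone. Its probe read 10.98, 10.55 and 10.25 in T3 plus FoxO1 siRNA livers, 11.56, 12.05 and 11.87 in T3 livers and 9.78, 10.23 and 9.61 in euthyroid livers. The groups were ordered T3, then T3 plus FoxO1 siRNA, then euthyroid, without overlap, though the lowest siRNA array (10.25) and the highest euthyroid array (10.23) nearly met. Me1 rose by 1.95 ± 0.22 with T3 (adjusted p = 0.00152). With the siRNA it changed by -1.24 ± 0.22 against T3 (adjusted p = 0.00623) and stood 0.72 ± 0.22 above euthyroid (adjusted p = 0.0415), the only one of the 9 called higher in that comparison. That last call was lost under 8 of 20 other settings, with the lowest value, 0.52, without siRNA replicate 1 (adjusted p = 0.113).

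**Figure D2:**
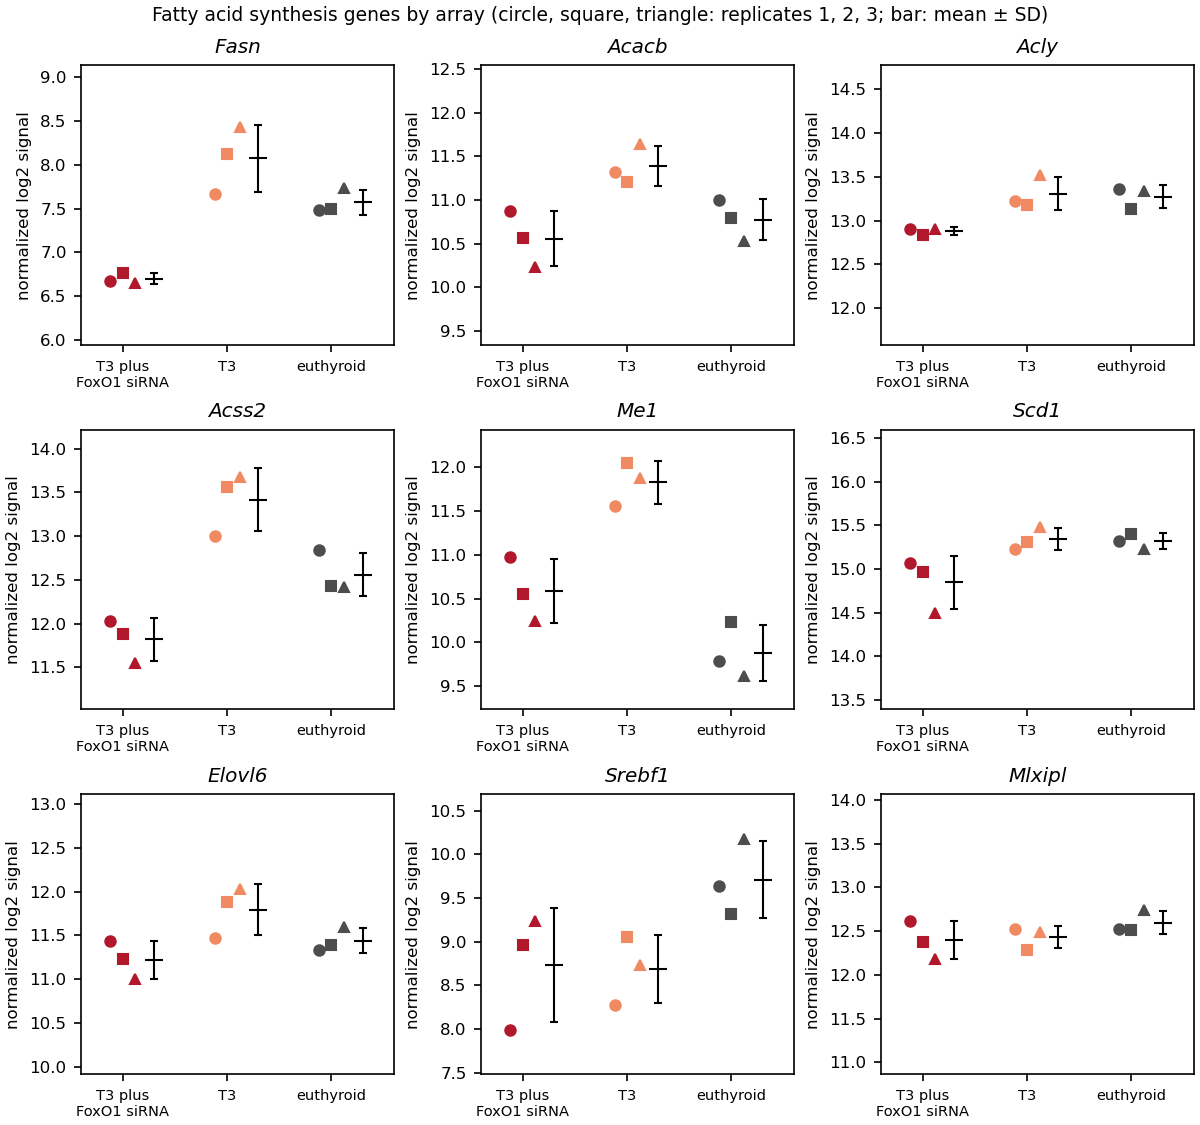
Normalized log2 signal (vertical axis, scaled apart for each gene) of the 9 measured genes on every array, by group; circles, squares and triangles are replicates 1, 2 and 3 and the bar is the mean ± SD (n = 3). For Fasn, Acss2 and Me1 the T3 plus FoxO1 siRNA arrays lie well below the T3 arrays, Srebf1 is highest in euthyroid livers, and the Mlxipl groups overlap.

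The carboxylases make malonyl-CoA, Acaca in the cytosol for synthesis and Acacb at the mitochondrial surface, where malonyl-CoA restrains fatty acid oxidation. Acaca's probe gave raw signals of 84.2 to 110.5 with detection p-values of 0.331 to 0.957, not above background on any array, so its response was not measurable here. Acacb read 10.87, 10.57 and 10.24 in T3 plus FoxO1 siRNA livers, 11.32, 11.20 and 11.65 in T3 livers and 11.002, 10.79 and 10.53 in euthyroid livers. T3 arrays were the highest 3, and the siRNA and euthyroid arrays overlapped. Acacb fell by 0.83 ± 0.19 with the siRNA against T3 (adjusted p = 0.0169), a 1.78-fold lower level. Without T3 replicate 3 or without siRNA replicate 3 the adjusted p was 0.0556 or 0.0563. T3 against euthyroid gave 0.62 ± 0.19, just outside the threshold (adjusted p = 0.0522) and inside it under 9 of 20 other settings. Acacb was not called between T3 plus FoxO1 siRNA and euthyroid livers (-0.22, 95% interval -0.65 to 0.21, adjusted p = 0.438). A further Acacb probe was detected on 0 arrays.

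Fasn builds palmitate from malonyl-CoA. It read 6.67, 6.77 and 6.65 in T3 plus FoxO1 siRNA livers, 7.66, 8.13 and 8.43 in T3 livers and 7.49, 7.49 and 7.73 in euthyroid livers. The 3 siRNA arrays, with an SD of 0.06, lay below every other array, while T3 replicate 1 lay inside the euthyroid range. Fasn fell by 1.38 ± 0.18 against T3 (adjusted p = 0.00143), 2.60-fold, and was lower than euthyroid by a change of -0.88 ± 0.18 (adjusted p = 0.00779). The difference between T3 and euthyroid was 0.50 ± 0.18 and was not called (adjusted p = 0.0788). The Fasn probe was dim, at raw signals of 197 to 428, and without background correction the changes of the siRNA group shrank to -0.90 against T3 and -0.53 against euthyroid, both still called.

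Palmitate is lengthened by Elovl6 and made monounsaturated by Scd1. The bright Elovl6 probe read 11.43, 11.24 and 10.9999 in T3 plus FoxO1 siRNA livers, 11.47, 11.88 and 12.03 in T3 livers and 11.33, 11.39 and 11.60 in euthyroid livers. Its siRNA and T3 arrays were apart by a narrow margin (11.43 against 11.47), and the euthyroid arrays overlapped both. The fall against T3 was 0.57 ± 0.17 (adjusted p = 0.0439). A second, dim Elovl6 probe read 6.68, 6.34 and 5.95 in T3 plus FoxO1 siRNA livers, 6.81, 7.66 and 7.57 in T3 livers and 6.42, 6.82 and 7.22 in euthyroid livers. It moved the same way by -1.02 ± 0.28, with an adjusted p of 0.0388 over all 18581 probes, where the bright probe had 0.0532 and 6.39% of probes were called lower. Neither probe was called for T3 against euthyroid (0.35 and 0.52, adjusted p = 0.180 and 0.218 over all probes).

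The Scd1 probe was bright, with raw signals of 23245 to 44463 on arrays whose highest signal was 58149 to 61453. Its levels were 15.07, 14.97 and 14.50 in T3 plus FoxO1 siRNA livers, 15.23, 15.31 and 15.48 in T3 livers and 15.32, 15.40 and 15.23 in euthyroid livers. All 3 siRNA arrays lay below the other 6, and replicate 3 lay furthest down. Scd1 fell by 0.50 ± 0.15 against T3 (adjusted p = 0.0494), near the threshold, and was at -0.47 ± 0.15 against euthyroid (adjusted p = 0.0477). Without siRNA replicate 3 these became -0.32 and -0.30 (adjusted p = 0.118 and 0.121). T3 alone gave 0.03, with a 95% interval of -0.32 to 0.37 (adjusted p = 0.925).

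Neither transcription factor was called in any of the 3 comparisons (limma), and Srebf1 had an unadjusted p under 0.05 in 2 of them. Srebf1, which encodes the SREBP forms that switch on lipogenic enzymes, read 7.99, 8.97 and 9.24 in T3 plus FoxO1 siRNA livers, 8.27, 9.05 and 8.73 in T3 livers and 9.63, 9.32 and 10.18 in euthyroid livers. Both T3 groups overlapped fully, and every one of their arrays lay below every euthyroid array. The change was 0.05 ± 0.34 between the siRNA and T3 (adjusted p = 0.933), with a wide 95% interval of -0.72 to 0.82. Against euthyroid it was -1.03 ± 0.34 with T3 (adjusted p = 0.0653) and -0.98 ± 0.34 with T3 plus FoxO1 siRNA (adjusted p = 0.0622), each past the threshold under 8 of 20 other settings. Its other probe was detected on 0 arrays.

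Mlxipl, which encodes ChREBP, read 12.62, 12.38 and 12.19 on its bright probe in T3 plus FoxO1 siRNA livers, 12.52, 12.28 and 12.49 in T3 livers and 12.53, 12.52 and 12.75 in euthyroid livers. All groups overlapped on this probe. No comparison was called, with -0.04 for the siRNA against T3 (95% interval -0.34 to 0.27), -0.17 for T3 and -0.20 for T3 plus FoxO1 siRNA against euthyroid (adjusted p = 0.877, 0.420 and 0.298). The less bright probe, also detected on all 9 arrays, read 11.14, 10.95 and 10.24 in T3 plus FoxO1 siRNA livers, 10.76, 11.11 and 10.89 in T3 livers and 11.29, 11.25 and 11.26 in euthyroid livers. On it both T3 groups lay below the euthyroid arrays, by changes of -0.35 for T3 and -0.49 for T3 plus FoxO1 siRNA that were not called (adjusted p = 0.269 and 0.115 over all probes).

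The calls were not equally firm. Fasn, Acss2 and Me1 stayed lower with the siRNA than with T3 under all 20 other settings tried, and Me1 stayed higher with T3 than in euthyroid livers under all 20. Against T3, Acacb lost its call under 2 settings, Acly under 10, Elovl6 under 11 and Scd1 under 12, always with the same sign. Against euthyroid, the siRNA group lost its call under 1 setting for Fasn, 5 for Acss2, 7 for Acly, 8 for Me1 and 12 for Scd1. With adjustment over all 18581 probes in place of genes, Acly (0.0501), Scd1 (0.0613) and the bright Elovl6 probe missed the threshold.

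**Figure D3:**
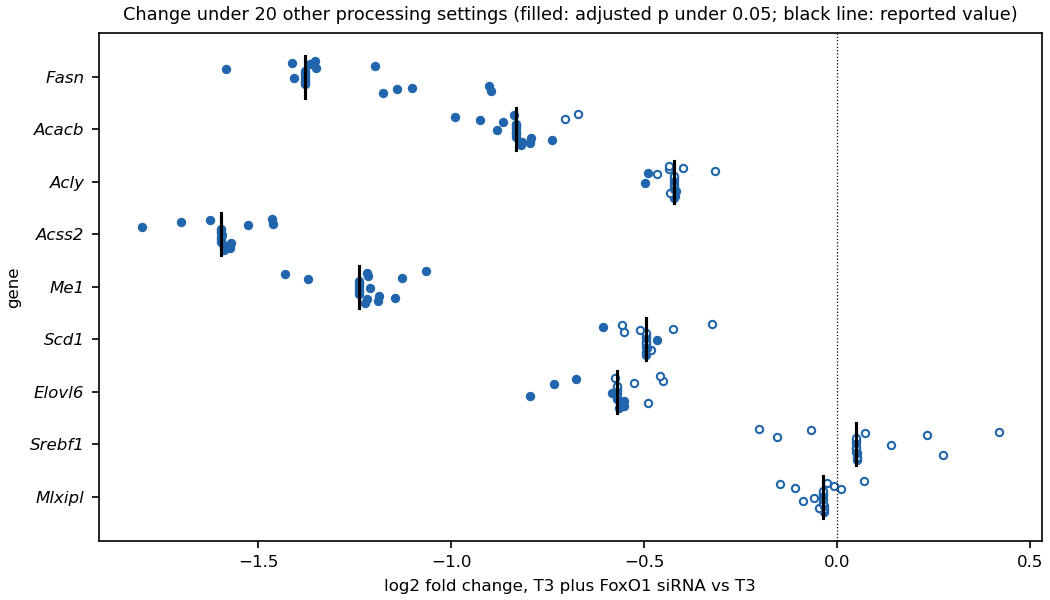
Log2 change of each gene for T3 plus FoxO1 siRNA against T3 (horizontal axis) under each of 20 other processing settings (points; filled where the adjusted p was under 0.05), with the reported value as a black line. Points of Fasn, Acss2 and Me1 are all filled, those of Acly, Scd1 and Elovl6 are partly open, and those of Srebf1 lie on both sides of 0, from -0.20 to 0.42.

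Within the groups, single arrays were often the highest or lowest for several of the 9 genes. Among the siRNA arrays replicate 1 was the highest for 7 of the 9, as it was for 36.6% of all genes, and replicate 3 the lowest for 7, as for 37.0% of all genes. Among the T3 arrays replicate 3 was the highest for 6 (30.0% of all genes) and replicate 1 the lowest for 6 (34.0%). These counts are a description, with no test. In euthyroid livers the highest value fell on replicates 1, 2 and 3 for 3, 2 and 4 genes.

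The counts of linked genes below stand beside the shares of all genes called: 7.77% lower and 11.8% higher for the siRNA against T3, 10.6% lower and 7.81% higher for T3 against euthyroid, and 13.3% lower and 13.5% higher for the siRNA against euthyroid. In the list of citrate and NADPH supply (6 of 8 genes tested), 1 fell and 1 rose with the siRNA against T3, at a median change of -0.06 beside 0.01 over all genes. Slc25a1, the mitochondrial citrate carrier, read 11.09, 11.11 and 11.05 in T3 plus FoxO1 siRNA livers, 11.73, 11.65 and 11.76 in T3 livers and 11.96, 11.98 and 11.95 in euthyroid livers. No groups overlapped, and the order was euthyroid, then T3, then the siRNA. It fell by 0.63 ± 0.09 against T3 (adjusted p = 0.00179) and was at -0.88 ± 0.09 against euthyroid (adjusted p = 0.000486). The transketolase gene Tkt rose by 0.32 ± 0.10 (adjusted p = 0.0439). Idh1, the cytosolic isocitrate dehydrogenase that yields NADPH, was the 1 gene of the list called with T3, at 0.78 ± 0.11 above euthyroid (adjusted p = 0.00301), and stayed 0.53 ± 0.11 above it with the siRNA (adjusted p = 0.00794). Of the glycolytic list 4 of 8 genes were tested, and limma called 0 in any of the 3 comparisons (1, 0 and 1 had an unadjusted p under 0.05 for the siRNA against T3, T3 against euthyroid and the siRNA against euthyroid).

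Among genes that process or partner SREBP, 4 of 11 fell and 0 rose with the siRNA against T3 (Ppargc1b, Insig2, Insig1 and Rxra), at a median of -0.29, where 7.77% of all genes fell. Ppargc1b, a coactivator of SREBP, read 8.63, 8.63 and 8.35 in T3 plus FoxO1 siRNA livers, 9.94, 9.91 and 9.82 in T3 livers and 9.65, 9.81 and 9.29 in euthyroid livers. The siRNA arrays were far the lowest, and the fall was 1.35 ± 0.14 against T3 (adjusted p = 0.000678) and 1.04 ± 0.14 against euthyroid (adjusted p = 0.00167). Insig2, which retains SREBP in the endoplasmic reticulum, read 11.84, 11.81 and 11.45 in T3 plus FoxO1 siRNA livers, 12.58, 13.001 and 12.67 in T3 livers and 11.36, 11.81 and 11.50 in euthyroid livers. It rose with T3, by 1.19 ± 0.17 (adjusted p = 0.00328), and with the siRNA it stood 1.05 ± 0.17 below T3 on the log2 scale (a change of -1.05, adjusted p = 0.00391), overlapping the euthyroid arrays. With T3 against euthyroid, 2 of the 11 rose and 1 fell, Nr1h3, which encodes the oxysterol receptor LXR alpha, a share of 27.3% beside 18.4% of all genes. Usf2, an E-box factor that acts on the Fasn promoter, rose by 0.68 ± 0.12 (adjusted p = 0.00761). Against euthyroid 2 of 11 were lower with the siRNA (18.2%, beside 13.3% of all genes) and 0 higher, Ppargc1b and the retinoid receptor Rxra (-0.41 ± 0.09, adjusted p = 0.0116).

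Genes that control acetyl-CoA carboxylase and malonyl-CoA were called about as often as all genes in 2 of the 3 comparisons. Of 9 tested, 1 rose and 1 fell with the siRNA against T3 (median 0.01), and 0 rose and 2 fell with T3 against euthyroid (median -0.11), each 22.2% beside 19.6% and 18.4% of all genes. With the siRNA against euthyroid 1 fell and 0 rose (11.1%, beside 26.8%). Thrsp, a thyroid hormone-responsive gene tied to lipogenesis, read 12.12, 12.92 and 12.46 in T3 plus FoxO1 siRNA livers, 13.05, 13.40 and 13.32 in T3 livers and 12.54, 12.43 and 12.91 in euthyroid livers. It fell by 0.75 ± 0.21 against T3 (adjusted p = 0.0341), and its siRNA and euthyroid arrays overlapped. T3 against euthyroid gave 0.63 ± 0.21 for Thrsp, with arrays apart, and was not called (adjusted p = 0.0642, limma). Prkab1, a subunit of the AMP-activated kinase that inhibits the carboxylases, rose by 0.47 ± 0.11 with the siRNA against T3 (adjusted p = 0.0177) and fell by 0.38 ± 0.11 with T3 against euthyroid (adjusted p = 0.0419). Stk11, which activates that kinase, fell by 0.52 ± 0.13 with T3 (adjusted p = 0.0216) and was at -0.45 ± 0.13 with T3 plus FoxO1 siRNA against euthyroid (adjusted p = 0.0277).

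In the list of insulin signalling to lipogenesis 6 of 9 genes were tested. With the siRNA 2 were lower and 0 higher than with T3 (median -0.34, beside 7.77% of all genes lower), 3 were lower and 0 higher than in euthyroid livers (median -0.31, beside 13.3%), and T3 against euthyroid gave 0 calls by limma (2 at an unadjusted p under 0.05, median 0.11). Lpin1, a phosphatidate phosphatase that also acts on SREBP downstream of mTORC1, read 8.75, 8.81 and 7.57 in T3 plus FoxO1 siRNA livers, 10.48, 10.77 and 11.24 in T3 livers and 9.63, 10.02 and 9.76 in euthyroid livers. Groups did not overlap, and Lpin1 fell by 2.45 ± 0.32 against T3 (adjusted p = 0.00158), 5.47-fold. Rptor, the mTORC1 scaffold, fell by 0.34 ± 0.10 (adjusted p = 0.0405). Against euthyroid Lpin1 was at -1.43 ± 0.32 (adjusted p = 0.0122), Rptor at -0.43 ± 0.10 (adjusted p = 0.0132) and the insulin receptor gene Insr was the third called.

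Of 11 genes for desaturation, elongation and esterification, 5 fell (Fads1, Elovl5, Elovl2, Pnpla3 and Dgat2) and 1 rose (Elovl1) with the siRNA against T3 (median -0.56), or 54.5% called beside 19.6% of all genes. With T3 against euthyroid 3 rose and 0 fell (median 0.34), or 27.3% beside 18.4%. Fads1, a desaturase of polyunsaturated fatty acids, read 14.15, 14.18 and 13.98 in T3 plus FoxO1 siRNA livers, 14.64, 14.67 and 14.77 in T3 livers and 14.46, 14.54 and 14.39 in euthyroid livers, with no overlap of the groups. It fell by 0.59 ± 0.10 against T3 (adjusted p = 0.00477). Elovl5, an elongase of the same acids, fell by 0.62 ± 0.13 (adjusted p = 0.0129). With T3 against euthyroid, the lipid droplet protein gene Pnpla3 rose by 1.90 ± 0.35 (adjusted p = 0.00829) and the elongase Elovl2 by 0.72 ± 0.12 (adjusted p = 0.00598), the third gene being Gpam, which starts glycerolipid synthesis. Against euthyroid, 4 of 11 were lower with the siRNA (Dgat1, Dgat2, Fads1 and Agpat2) and 1 was higher (Elovl1), or 45.5% beside 26.8%, and the 2 called with the lowest adjusted p were the triglyceride synthases Dgat1 (-0.78 ± 0.15, adjusted p = 0.00615) and Dgat2 (-0.40 ± 0.10, adjusted p = 0.0165).

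**Figure D4:**
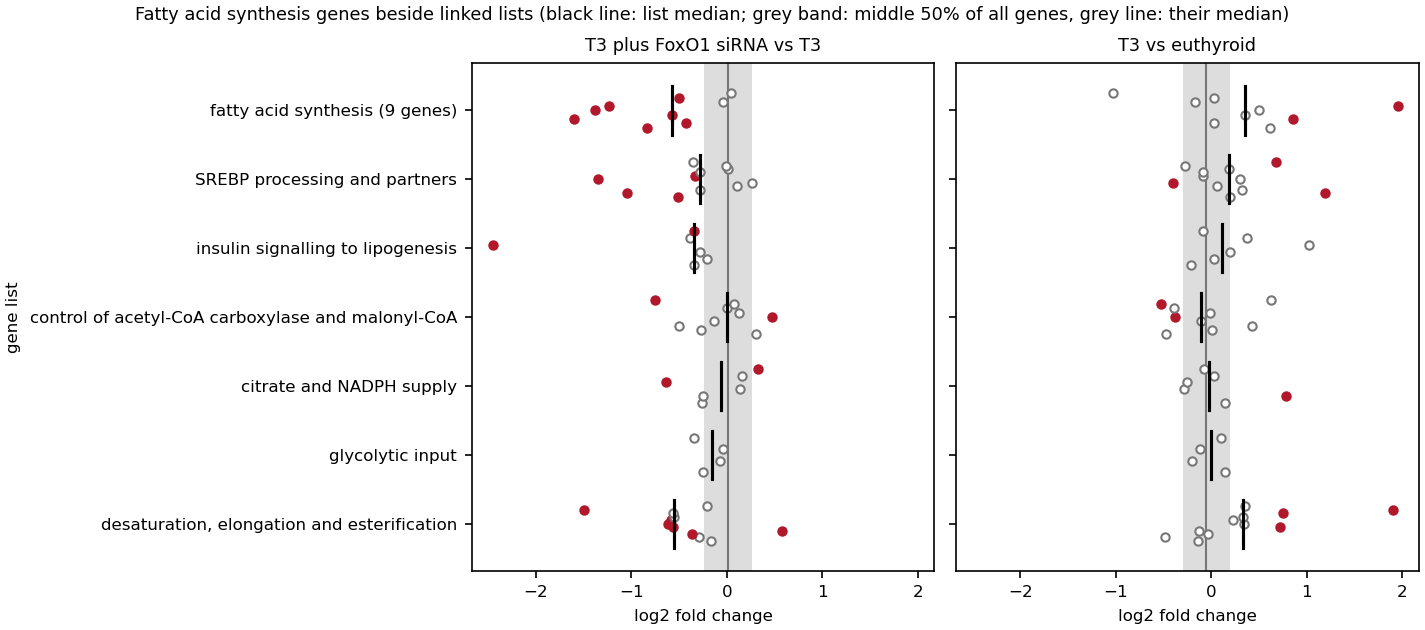
Log2 change (horizontal axis) of each tested gene (points; filled red where the adjusted p was under 0.05) in the fatty acid synthesis genes and 6 linked lists (rows), for T3 plus FoxO1 siRNA against T3 (left) and T3 against euthyroid (right); black lines are list medians, the grey line and band the median and middle 50% of all genes. With the siRNA the medians of the synthesis genes (-0.57) and of desaturation, elongation and esterification (-0.56) lie furthest left; with T3 they lie at 0.35 and 0.34.

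Cell type markers were also called with the siRNA against T3, where 11.8% of all genes rose and 7.77% fell. Of 11 hepatocyte markers listed, 10 were tested, all but Tat. Of these, 5 fell and 0 rose against T3 (Alb, Ass1, Hnf4a, Hpd and Tdo2, list median -0.29). Alb had the deepest fall, at -1.08 ± 0.25 (adjusted p = 0.0167, limma). The 5 not called were Apoa1 (0.004), Ttr (-0.06), Cps1 (-0.21), Asgr1 (0.07) and Serpina1a (0.04). The summed normalized signal of the 10 was 174269 to 185508 in T3 plus FoxO1 siRNA livers, 192750 to 196762 in T3 livers and 188819 to 194546 in euthyroid livers. Of 9 macrophage markers 6 rose and 0 fell (median 0.67), with sums of 15943 to 20131 in T3 plus FoxO1 siRNA livers, 11065 to 12465 in T3 livers and 9508 to 10071 in euthyroid livers. Stellate cell and fibroblast markers rose in 7 and fell in 2 of 11 cases (median 1.31), with sums of 15200 to 18261 in T3 plus FoxO1 siRNA livers, 13804 to 14507 in T3 livers and 16261 to 18704 in euthyroid livers. The 2 that fell were Dcn and Reln. These sums weigh bright probes most, and the brightest, Dcn, averaged 12.77, 13.31 and 13.37 in these groups, so they do not follow the 7 that rose. Acta2, the actin of activated stellate cells, rose by 4.42 ± 0.32 (adjusted p = 0.000135). Both cholangiocyte markers tested, Krt7 and Sox9, rose, and 0 of 15 markers of endothelial cells, neutrophils and monocytes, lymphocytes and erythroid cells were called by limma (2 at an unadjusted p under 0.05). Krt7, and Timp1 among the stellate cell markers, passed the filter only through the siRNA group. Each was detected on 3 siRNA arrays, 0 T3 arrays and 1 euthyroid array, so nothing is read from their rises. With T3 against euthyroid, where Me1 and Acss2 rose and 7.81% of all genes were higher and 10.6% lower, 3 hepatocyte markers rose and 2 fell, 1 macrophage marker rose (Lyz2) and 5 stellate cell markers fell (Col1a1, Col1a2, Col3a1, Acta2 and Reln). In that comparison the erythroid marker Alas2 (-1.42), Lpl (-0.92), Sox9 (-0.53) and the endothelial marker Stab1 (-0.49) also fell and the lymphocyte marker Cd3g rose (0.69). With T3 plus FoxO1 siRNA against euthyroid, 13.5% of all genes were higher and 13.3% lower. There 4 hepatocyte markers fell, 7 macrophage markers rose, and 5 stellate cell markers rose and 2 fell. Alas2 (-1.35) and Stab1 (-0.55) fell too. The 5 stellate cell markers here, the 7 that rose against T3 and the median of 1.31 all include Timp1. The part of these cell types in the changes of the synthesis genes was not tested. Fat depots make the same enzymes, and their part in these values was not tested. The adipocyte markers Fabp4 and Retn were detected on 0 arrays and Adipoq, Plin1 and Cidea on at most 1, and no probe named Cfd. Of 8 listed, Lpl and Lep were tested and both rose with the siRNA against T3, with sums of 5003 to 6581 in T3 plus FoxO1 siRNA livers, 2729 to 4167 in T3 livers and 5654 to 7360 in euthyroid livers. These sums are almost wholly Lpl, which averaged 12.54, 11.73 and 12.65 in these groups, beside 5.71, 5.17 and 5.43 for Lep. Lep too passed the filter only through the siRNA group (3 siRNA arrays, 0 T3 arrays and 1 euthyroid array), so nothing is read from its rise.

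Outside the 10 genes, those whose levels over the 9 arrays were most like the mean of the 9 scaled members were Lpin1 (Pearson r = 0.963), Cyp4a31 (0.959), Aff4 (0.952), Morf4l1b (0.946) and Terf2ip (0.944). These values describe 9 arrays in 3 groups and carry no test. The genes were picked on these same arrays for following the members, so falls with the siRNA against T3 were built into the choice. Cyp4a31, a fatty acid hydroxylase gene, changed by -1.83 ± 0.17 in that comparison. Morf4l1b changed by -0.60 ± 0.13, Aff4 by -0.47 ± 0.11 and Terf2ip by -0.21 ± 0.09. Nothing is read from these changes.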

How the data were processed

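Liver RNA was measured on 9 Illumina bead arrays. The authors deposited probe signal intensities, linear and not normalized, each with its detection p-value, per the file headers. Normalized intensities of the same arrays, also deposited by the authors, served as an alternative. Partek 6.6 is named in the submitters' processing notes, without its step; the scanner is not given in the sources used here. In R 4.3.3, limma 3.58.1 (neqc, offset 16, using controls implied by those p-values; statmod 1.5.0) corrected background, normalized by quantiles and took log2. Of 45281 probes, 34885 name 1 gene, 18 name several and 10378 name none; 18581 passed the filter. The probe with the highest mean stood for a gene. All 9 arrays entered 1 model of 3 group means (lmFit and eBayes, with Benjamini-Hochberg over 10408 genes, or over 18581 probes). The code was also run on simulated data, and nothing here rests on that run. The number of arrays limits the precision.

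The genes, lists and tests were chosen with earlier results of these data known. Named genes are every member, Foxo1, up to 2 genes per linked list and comparison with the lowest adjusted p past the threshold, and the 5 genes most like the members' mean; members of cell type lists and of small counts were named after their values were seen. Replicate numbers did not pair the arrays: deviations from the group means of same-numbered arrays correlated at -0.06 to 0.03. No pair of arrays was identical, and arrays of a group correlated at 0.986 or more. Alternatives changed the background step, normalization, filter, probe rule, samples fitted, array weights and replicate block, and left out each array. Promoter sequences are RefSeq's (GRCm38.p6).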

Additional observations from a re-analysis of the deposited data

How the results depend on the processing

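Of 540 member changes (27 under 20 alternatives) 431 kept direction and side of the threshold, 72 lost the call, 26 gained one and 11 changed sign, 0 of these from a called value. The count of members called for the siRNA against T3 was 7; it was 4 with median scaling, without a filter or with the 2 groups alone (Fasn, Acss2, Me1 and Acacb), and 3 to 6 with 1 array left out: 3 without T3 replicate 3 or without siRNA replicate 3, and 4 without euthyroid replicate 1 or 3 or siRNA replicate 2. The count for the siRNA against euthyroid was 5; it was 1 with median scaling, 2 without a filter, 3 with 2 groups alone and 1 to 4 with 1 array left out (1 without euthyroid replicate 1 or siRNA replicate 2). The count for T3 against euthyroid was 2; it was 4 without background correction, with an offset of 50, with the authors' deposited values, with probes detected on all 9 arrays, with 2 groups alone or with array weights, which added Acacb and Srebf1; leaving out 1 array gave 1 to 4, with 1 without euthyroid replicate 2 or 3 or T3 replicate 2 or 3. With the replicate number as a block, which is no pairing, 5, 4 and 3 members and 1663, 2376 and 1525 genes were called for the siRNA against T3, the siRNA against euthyroid and T3 against euthyroid. Genes changed numbered 2035, 2785 and 1919 in the same order, with 1 array left out 1170 to 1760, 1696 to 2930 and 895 to 2008, and with median scaling 1738, 1778 and 916; that scaling put 88.7%, 73.6% and 32.9% of calls higher, against 60.2%, 50.3% and 42.4%, and moved the median of all genes for the siRNA against T3 to 0.17. The sign changed only for values that were not called. Under median scaling T3 against euthyroid gave -0.011 for Acly and -0.024 for Scd1. With 1 array left out, Acly in that comparison ranged from -0.076 to 0.098 (below 0 without euthyroid replicate 2 or T3 replicate 3) and Scd1 from -0.045 to 0.081 (below 0 without euthyroid replicate 3 or T3 replicate 3). For the siRNA against T3, Mlxipl ranged from -0.15 to 0.069 (above 0 without T3 replicate 1 or siRNA replicate 3) and Srebf1 from -0.20 to 0.42 (below 0 without T3 replicate 1 or siRNA replicate 2 or 3). The causes were not tested. Arrays were left out after normalization and filtering of all 9, and a block for slide or scan was not run, as none is named. Acaca, at background, limits the pathway to 9 genes.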
